A study of Rattus norvegicus with 18 samples.

Results

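Mitochondrial ribosomal protein genes encode the proteins of the ribosome that works inside mitochondria. They were taken by name, as every symbol in the deposited table made of Mrpl or Mrps, a number and at most one further letter, whose FPKM averaged 1 or more across the groups. FPKM counts sequenced fragments per kilobase of transcript, scaled to the size of the library. The table holds 17312 genes, of which 69 symbols have such a name and 65 also pass the level. Of the 4 that do not, Mrpl1 averaged 0.441 FPKM and Mrpl30, Mrpl36 and Mrpl53 are listed at 0 in all 6 groups. The lowest gene inside the limit is Mrps28 at 8.90 FPKM, so no gene lies near it. Another 4 genes of this family carry a different spelling in the table and fall outside the rule.

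The cells were neonatal rat ventricular myocytes, heart muscle cells put in primary culture from 2-day-old Sprague-Dawley pups. SR9009, a ligand that activates the transcriptional repressors REV-ERBα and REV-ERBβ, or its vehicle was given for 24 h, and phenylephrine (PE), an α1-adrenergic agonist that makes cultured myocytes hypertrophic, followed. RNA was taken after 0, 4 and 48 h of PE in each arm, which makes 6 groups of 3 libraries: SR9009 with 0, 4 or 48 h of PE and vehicle with 0, 4 or 48 h of PE. All 6 groups passed a day without serum before the pretreatment. No group at 4 or 48 h went without PE, so PE and time in culture cannot be told apart. The labels do not say whether the 3 libraries of a group came from separate cultures. The authors combined them into 1 FPKM between confidence bounds. Standard deviations and tests were therefore out of reach, and depth is unknown.

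The mitochondrial ribosome reads the few messages left on mitochondrial DNA, all of which encode parts of the respiratory chain and of ATP synthase, the machinery that supplies most of the ATP of a beating heart cell. Its small subunit holds the decoding site and its large subunit joins amino acids and feeds the new chain towards the inner membrane. The RNA parts come from mitochondrial DNA, whereas every protein part is encoded in the nucleus, translated in the cytoplasm and imported. Part of the proteins descend from the bacterial ribosome and the rest were added during the evolution of mitochondria. Of the 65 genes, 39 encode large-subunit proteins, among them Mrps18a and Mrps30 despite their names, and 25 encode small-subunit proteins. Mrps36 is a misnomer: its product is now known as a part of the 2-oxoglutarate dehydrogenase complex and not of the ribosome. By kind, 36 have a bacterial counterpart and 28 are specific to mitochondria.

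The genes were well expressed. Their median level over the groups was 52.6 FPKM, against 16.05 FPKM for the 10545 genes that pass the same level, and 63 of 65 lay above that median. Highest were Mrps36 at 178 FPKM, the small-subunit gene Mrps21 at 166 FPKM, and the large-subunit genes Mrpl54 at 149.6 FPKM, Mrpl17 at 142 FPKM and Mrpl13 at 132 FPKM. Lowest after Mrps28 were Mrpl40 at 11.2 FPKM, Mrps2 at 17.97 FPKM, Mrps5 at 21.7 FPKM and Mrps15 at 21.8 FPKM. The half-width of the authors' bounds was 14.9% of the value at the median. By gene it lay between 12.9% and 25.2%, widest in Mrps28.

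Across the 6 groups the levels moved little. The highest group value was 1.43 times the lowest at the median, against 1.63 times over all genes. That comparison was not matched for level, with medians of 52.6 FPKM in the family and 16.05 FPKM over all genes. The highest value was under 1.5 times the lowest in 42 genes and at least 2 times in 3. Those were Mrps18b at 2.53, Mrps2 at 2.43 and Mrpl15 at 2.03. Flattest was Mrpl20, a large-subunit gene, at 1.15. The lowest value of a gene was in SR9009 at 0 h for 31 genes and in vehicle at 0 h for 21. Over all genes those groups held the lowest value in 14.3% and 12.2%. The highest value was in SR9009 at 4 h for 24 genes, in SR9009 at 48 h for 16, in vehicle at 4 h for 18 and in vehicle at 48 h for 5. Over all genes the highest value was in SR9009 at 4 h for 12.2%, in SR9009 at 48 h for 12.3%, in vehicle at 4 h for 19.1% and in vehicle at 48 h for 23.5%. Summed over the 65 genes, SR9009-treated cells had 3473 FPKM at 0 h, 4483 at 4 h and 4202 at 48 h, and vehicle-treated cells had 3469, 4328 and 3974 FPKM. The sum over the whole table was not the same in every group either, between 609018 and 710198 FPKM, and its part in these differences is taken up with the other scalings below.

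**Figure D1:**
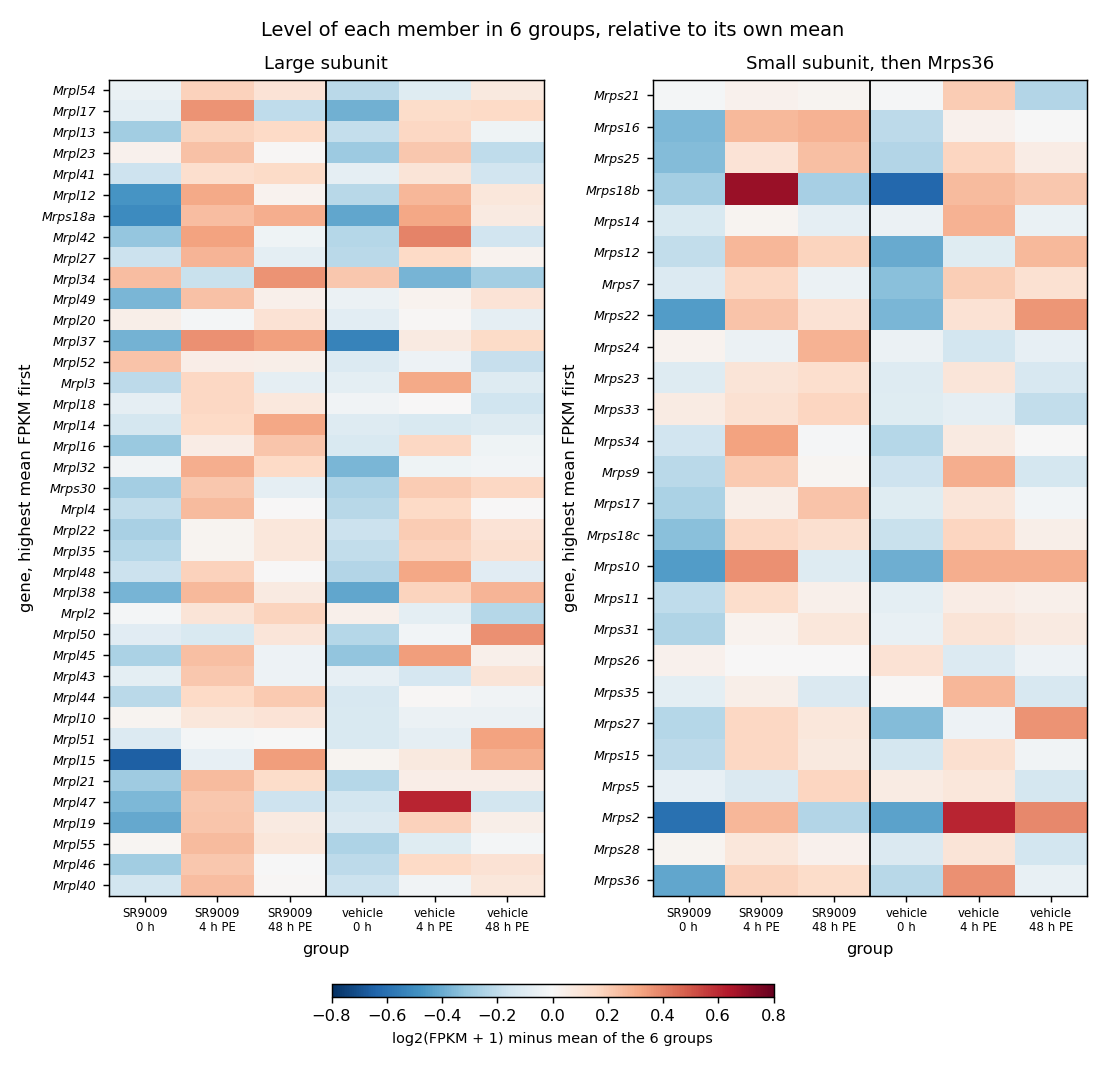
Level of each of the 65 genes in the 6 groups as log2(FPKM + 1) minus the gene's own mean over the groups (colour), in rows by subunit and mean level, with SR9009 groups left and vehicle groups right of the line. Most rows are bluest at 0 h in both arms. Mrpl34 runs the other way in vehicle, and Mrps18b, Mrps2 and Mrpl15 have the widest spans at 2.53, 2.43 and 2.03 times.

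Differences below are of log2(FPKM + 1), which understates those of low genes, with their widest range under the authors' bounds in parentheses. The words higher and lower are kept for a gene whose difference is at least 1.5-fold (0.58 on the log2 scale) and whose range excludes 0, which means that the bounds of the groups do not overlap. This is a rule of size and not a test.

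After 4 h of PE, most of the genes were above their 0 h level in both arms, by a modest amount. With SR9009 the median difference was 0.37 and 58 of 65 genes were above 0, against 44% of all genes and a median of -0.06 over all genes. In vehicle the median was 0.30 and 59 of 65 were above 0, against 48.4% of all genes and a median of -0.02. By the rule 14 genes were higher and 0 lower with SR9009, where 6.5% of all genes were higher and 9.95% lower. In vehicle 10 were higher and 1 lower, where 8.15% of all genes were higher and 8.82% lower. These counts come to 21.5% and 15.4% of the 65 genes called higher. Ranges lay wholly above 0, whatever the size, for 27 genes (41.5%) with SR9009 and 18 (27.7%) in vehicle, against 11.5% and 14% of all genes. The arms have no library in common, and 55 of 65 genes were above 0 in both, against 36.5% of all genes. Called higher in both were 8 genes, or 12.3% of the 65, against 4.51% of all genes: Mrps18b, Mrps2, Mrps10, Mrps18a, Mrpl37, Mrpl38, Mrpl42 and Mrps36. They are 8 of the 14 called with SR9009 and 8 of the 10 in vehicle. Over all genes it was 469 of the 676 called higher with SR9009 and of the 849 in vehicle.

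Among small-subunit genes, Mrps18b led with SR9009. It encodes one of 3 mammalian relatives of the bacterial protein S18 and lies on chromosome 20 (3344870 to 3350929, rn6). Its level was 56.0 FPKM at 0 h, 109.9 at 4 h and 56.2 at 48 h in SR9009-treated cells, and 43.4, 81.0 and 78.8 FPKM at these times in vehicle-treated cells. The 4 h value was the highest of its arm in both, and its bounds were clear of those at 0 h. The 4 h difference was 0.96 (0.57 to 1.35) with SR9009 and 0.88 (0.46 to 1.31) in vehicle.

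Mrps2 (chromosome 3, 7047604 to 7056698) encodes the counterpart of bacterial S2, on the back of the small subunit, and led in vehicle. It had 10.98, 20.8 and 14.4 FPKM at 0, 4 and 48 h with SR9009 and 12.4, 26.6 and 22.6 FPKM in vehicle. Both arms peaked at 4 h, and vehicle-treated cells were above SR9009-treated cells at each time. The 4 h difference was 0.86 (0.48 to 1.246) with SR9009 and 1.04 (0.63 to 1.45) in vehicle, the only one of the 65 past 2-fold at 4 h. The listed locus of Mrps2 overlaps that of RGD1306233, a gene at 0.107 FPKM or less in each group.

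Mrps10 (chromosome 9, 15637428 to 15651154) encodes the counterpart of bacterial S10 in the head of the small subunit. It had 30.1, 53.5 and 38.4 FPKM at 0, 4 and 48 h with SR9009 and 31.4, 50.7 and 50.7 FPKM in vehicle. Its 4 h difference was 0.81 (0.23 to 1.42) with SR9009 and 0.68 (0.09 to 1.28) in vehicle. Mrps22, a mitochondria-specific protein in which human mutations cause cardiomyopathy with respiratory chain deficiency, had 38.9, 62.9 and 58.1 FPKM with SR9009 and 41.4, 58.0 and 68.7 FPKM in vehicle. It was called higher at 4 h with SR9009 at 0.68 (0.25 to 1.11). In vehicle its 4 h difference, 0.48, was under the rule. Mrps16, counterpart of bacterial S16, was likewise called with SR9009 at 0.62 and not in vehicle, at 0.24. For neither gene did the difference between the arms meet the rule. In all, 5 of 25 small-subunit genes were higher with SR9009 and 3 of 25 in vehicle, where 6.5% and 8.15% of all genes were.

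Among large-subunit genes, 8 of 39 were higher with SR9009 and 6 of 39 in vehicle, where 6.5% and 8.15% of all genes were. Mrps18a, another S18 relative that sits in the large subunit (chromosome 9, 17225122 to 17254845), had 69.9, 118 and 122 FPKM at 0, 4 and 48 h with SR9009 and 74.2, 123 and 104.7 FPKM in vehicle. The 0 h groups were lowest and the bounds at 4 h lay above them, with differences of 0.75 (0.32 to 1.18) with SR9009 and 0.73 (0.31 to 1.15) in vehicle. Its listed locus overlaps that of Rsph9, a gene under 1 FPKM throughout. Mrpl37, a mitochondria-specific protein (chromosome 5, 126656330 to 126666830), had 53.7, 90.3 and 88.0 FPKM with SR9009 and 48.1, 73.7 and 77.9 FPKM in vehicle, so the level of 4 h was still seen at 48 h in both arms. Its 4 h difference was 0.74 (0.33 to 1.15) with SR9009 and 0.60 (0.18 to 1.03) in vehicle.

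Mrpl12, which forms the stalk that recruits translation factors, had 73.7, 127 and 105 FPKM with SR9009 and 88.1, 124 and 109.6 FPKM in vehicle. It was called higher at 4 h with SR9009 at 0.78 (0.36 to 1.19), beside 0.48 in vehicle. Mrpl38 and Mrpl42, both mitochondria-specific, were higher in both arms, at 0.63 each with SR9009 and at 0.60 and 0.63 in vehicle. Mrpl19 at 0.63, Mrpl49 at 0.60 and Mrpl15 at 0.59 were called with SR9009 and not in vehicle. Mrpl47 at 0.76 (0.26 to 1.26) and Mrpl45, which lies by the exit tunnel at the membrane, at 0.65 (0.25 to 1.06) were called in vehicle and not with SR9009. With SR9009 Mrpl45 was at 0.49 and Mrpl47 at 0.57 (0.05 to 1.11), just under the rule. Mrpl47 was called there with a pseudocount of 0.1 FPKM, with none and with median centring. For none of the genes called in 1 arm only did the difference between the arms meet the rule. The listed locus of Mrpl47 overlaps that of Actl6a, a gene between 22.5 and 26.0 FPKM in all groups. Mrps36, the dehydrogenase part, differed by 0.60 with SR9009 and 0.59 in vehicle.

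The gene that went the other way was Mrpl34 (chromosome 16, 19874034 to 19874769), counterpart of the small bacterial protein L34. It had 105 FPKM at 0 h, 78.1 at 4 h and 114 at 48 h with SR9009, and 103, 68.2 and 73.3 FPKM in vehicle. The 4 h value was the lowest of its arm in both. The 4 h difference was -0.42 (-0.85 to 0.0024) with SR9009, which is not called, and -0.59 (-1.02 to -0.17) in vehicle, which is. Other differences under 0 at 4 h were small, with Mrpl52 at -0.17, Mrps24 at -0.07 and Mrpl20 at -0.06 lowest after it with SR9009, and Mrps26 at -0.22, Mrpl2 at -0.12 and Mrps24 at -0.10 in vehicle.

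**Figure D2:**
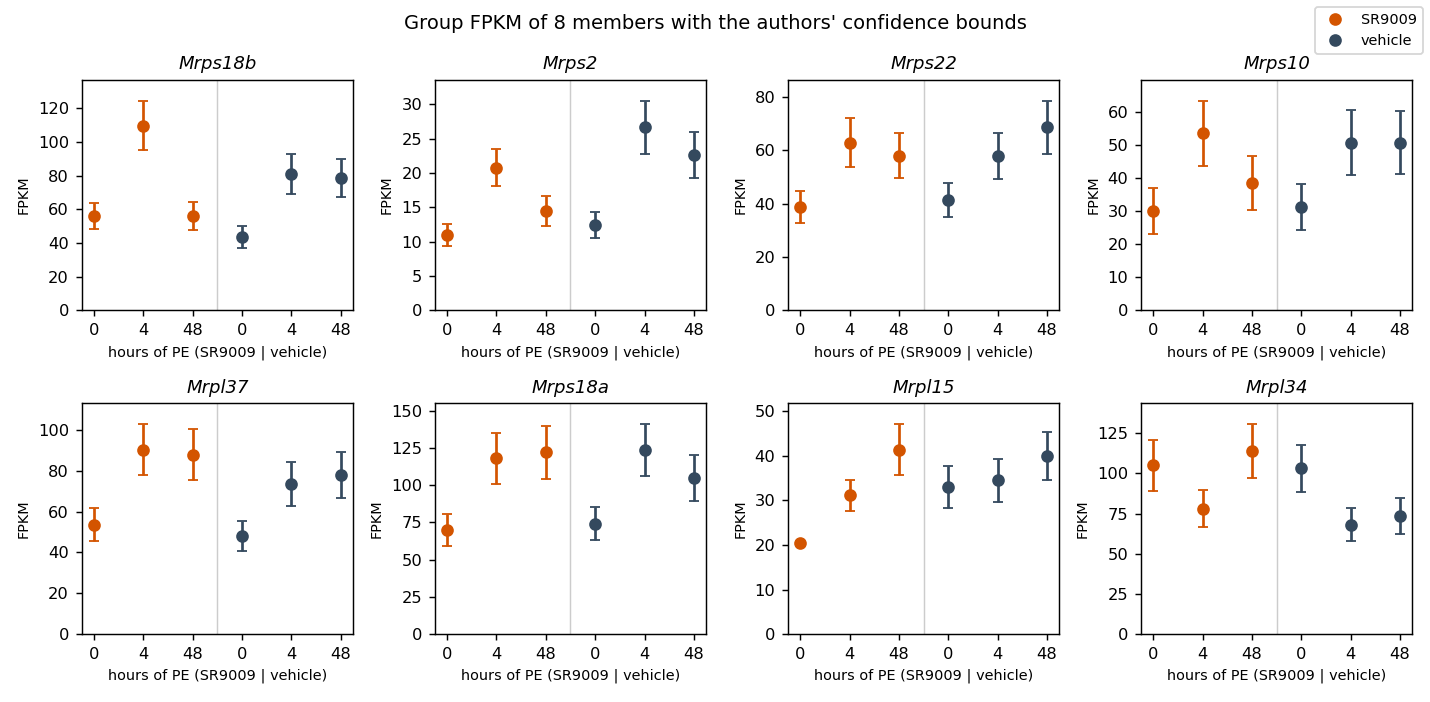
FPKM of 8 genes at 0, 4 and 48 h of PE, with SR9009 left (orange) and vehicle right (dark blue) in each panel; points are the authors' group values and bars their confidence bounds. Mrps18b reached 109.9 FPKM at 4 h with SR9009 and was at 56.2 FPKM at 48 h, while in vehicle it was at 81.0 and 78.8 FPKM; Mrpl15 was lowest in SR9009 at 0 h, at 20.3 FPKM, where its bounds are narrower than in every other group.

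These counts depended on the scaling between groups. In vehicle the split of 10 higher and 1 lower at 4 h became 4 and 1 with quantile normalization, 10 and 0 with median centring, and 2 and 1 with FPKM rescaled to equal sums. Over all genes 780 of 10385, 906 of 10418 and 498 of 10418 were then higher in vehicle. The family's share called higher in vehicle was thus below that of all genes with quantile normalization and with equal sums. With SR9009 the 14 higher became 10, 16 and 6, with 0 lower each time. Rescaling to equal sums moved the median of all genes to -0.17 with SR9009 and -0.20 in vehicle, and the median of the 65 genes stayed 0.42 above it with SR9009 and 0.30 above it in vehicle. Called under all 3 other scalings were 6 genes with SR9009 (Mrps18b, Mrps2, Mrps10, Mrps18a, Mrpl37 and Mrpl12) and 2 in vehicle (Mrps18b and Mrps2); Mrpl34 in vehicle was at -0.57 with median centring and no longer called.

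The sequences just upstream of 4 of these genes are shown because promoters of this family are known for sites of shared activators: NRF1, the ETS-family factor GABP, and YY1. They stand for the gene with the widest span (Mrps18b), its large-subunit relative (Mrps18a), one of the most abundant members (Mrpl17) and the one that was lower (Mrpl34). They are RefSeq sequence of build GRCr8, the 150 bases before the annotated start, 5′ to 3′ on the gene's strand, with matches to the 4 motifs below in capitals. Mrps18b is at chr20:2842856-2843005 on the plus strand, Mrps18a at chr9:22367381-22367530 on the minus strand, Mrpl17 at chr1:169575700-169575849 on the minus strand and Mrpl34 at chr16:18186297-18186446 on the plus strand. In Mrps18b the last 28 bases lie after the most upstream start that RefSeq gives for the gene.
Mrps18b: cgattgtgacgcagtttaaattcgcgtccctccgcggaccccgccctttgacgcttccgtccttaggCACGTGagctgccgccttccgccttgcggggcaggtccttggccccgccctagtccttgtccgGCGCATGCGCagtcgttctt
Mrps18a: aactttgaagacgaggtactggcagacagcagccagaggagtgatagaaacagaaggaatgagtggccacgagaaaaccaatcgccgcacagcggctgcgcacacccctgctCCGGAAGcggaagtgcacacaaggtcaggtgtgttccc
Mrpl17: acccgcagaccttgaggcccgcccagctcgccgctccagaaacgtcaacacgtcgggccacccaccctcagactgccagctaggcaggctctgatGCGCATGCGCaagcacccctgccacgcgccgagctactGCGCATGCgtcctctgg
Mrpl34: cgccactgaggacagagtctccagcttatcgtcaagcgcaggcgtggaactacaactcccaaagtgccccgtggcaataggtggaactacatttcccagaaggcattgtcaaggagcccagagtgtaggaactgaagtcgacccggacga
In these stretches, Mrps18b has NRF1 matches on both strands, which overlap and begin 20 and 18 bases before the start, and an E-box match at 83 bases. Mrps18a has an ETS match at 38 bases. Mrpl17 has NRF1 matches at 55, 53 and 17 bases, and Mrpl34 has no match.

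The motifs were searched as exact letters on both strands, in windows of 300 bases (250 before and 50 after the start): NRF1 by the core letters GCATGCGC, ETS as CCGGAAG, YY1 as AAGATGGC and the E-box, bound by MYC and related factors, as CACGTG. ETS and YY1 matches can share the letters AAG. A window was given for 50 of the 65 genes. The YY1 letters were in 13 of the 50 (26%), against 5.96% of the 7904 genes with a window and values in all groups, and 3.62% of 27457 genes. The 13 were Mrpl32, Mrpl37, Mrpl42, Mrpl46, Mrpl48, Mrpl49, Mrpl50, Mrps7, Mrps10, Mrps18a, Mrps18b, Mrps27 and Mrps30. A link between these letters and the PE differences was not tested. The ETS letters were in 15 (30%), against 18.6% and 9.63%. The NRF1 letters were in 5 (10%), among them Mrpl17 and Mrps18b, against 5.35% and 2.77%, and the E-box in 4 (8%), against 9.65% and 7.08%. The NRF1 letters were shortened after a first search with a longer form that allowed any base in the middle, in which the family's share was higher and stood closer to that of the measured genes. The excess for NRF1 therefore depends on how the motif is spelt. A match describes letters in a window and shows neither binding nor a cause.

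After 48 h of PE, the median difference from 0 h was 0.23 with SR9009 and 0.17 in vehicle. With SR9009 60 of 65 genes (92.3%) were above 0, against 45.2% of all genes and a median of -0.03 over all genes. In vehicle 48 of 65 (73.8%) were above 0, against 50.9% and a median of 0.01. By the rule 4 were higher and 0 lower with SR9009, where 5.04% of all genes were higher and 4.97% lower, so that the 4, or 6.15% of the 65, are close to the background. In vehicle 9 were higher and 0 lower, where 11.3% of all genes were higher and 10.4% lower. The 9, or 13.8% of the 65, are likewise close to the background share called higher. Ranges lay wholly above 0 for 16 genes (24.6%) with SR9009 and 12 (18.5%) in vehicle, against 9.49% and 17.1% of all genes. Both comparisons share their 0 h libraries with the 4 h ones. With FPKM rescaled to equal sums the vehicle median was -0.05, the opposite sign, beside -0.19 for all genes, and the split of 9 higher and 0 lower became 2 and 1, with Mrpl34 the lower one at -0.71.

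At 48 h the genes called higher with SR9009 were the large-subunit genes Mrpl15 at 0.99 (0.76 to 1.196), Mrps18a at 0.79 (0.37 to 1.23) and Mrpl37 at 0.70 (0.29 to 1.12), and the small-subunit gene Mrps16 at 0.64 (0.20 to 1.08). In vehicle they were 6 small-subunit and 3 large-subunit genes. The small-subunit genes were Mrps18b at 0.85 (0.43 to 1.27), Mrps2 at 0.81 (0.40 to 1.22), Mrps22 at 0.72, Mrps27 at 0.71, Mrps10 at 0.68 and Mrps12, part of the decoding centre, at 0.66. The large-subunit genes were Mrpl38 at 0.69, Mrpl37 at 0.68 and Mrpl50 at 0.60. Mrpl37 was the one gene called in both, or 1.54% of the 65, which is below the 1.91% of all genes. It is 1 of the 4 called with SR9009 and 1 of the 9 in vehicle. Over all genes it was 199 of the 525 called higher with SR9009 and of the 1179 in vehicle. Above 0 in both arms were 46 of 65, against 25.9% of all genes. Across the 65 genes the differences of the arms had a Pearson correlation of 0.30 at 48 h and 0.77 at 4 h. Over all genes tested it was 0.25 at 48 h and 0.82 at 4 h. Genes are not independent replicates, and no p is given.

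**Figure D3:**
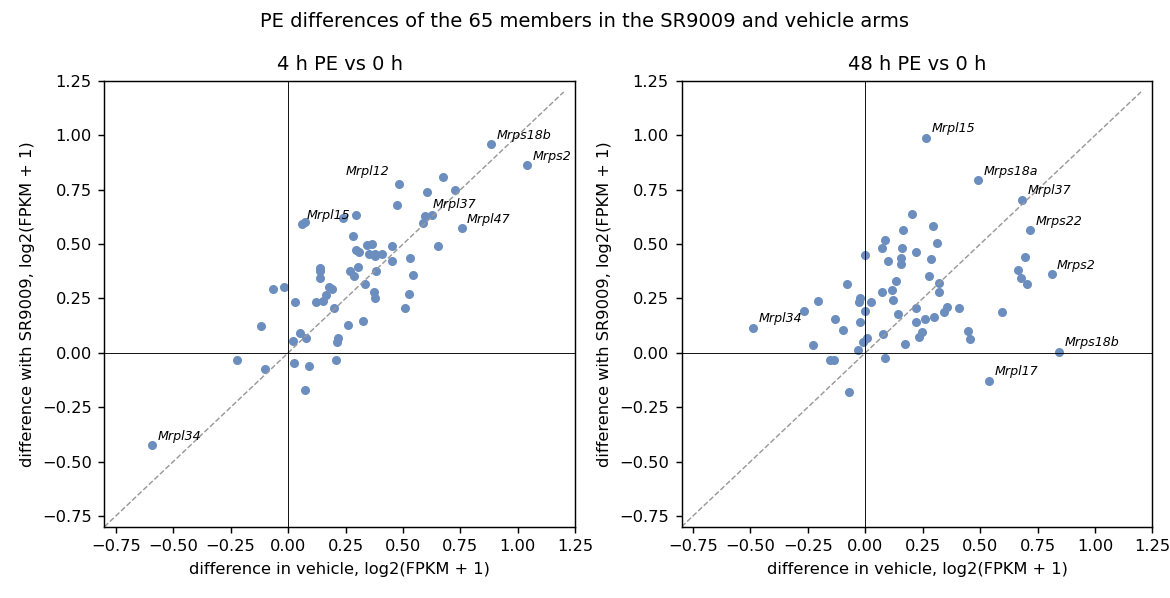
PE difference of each of the 65 genes with SR9009 (vertical) against that in vehicle (horizontal), log2(FPKM + 1), at 4 h (left) and 48 h (right); the dashed line marks equal differences. At 4 h the points lie along the line (Pearson 0.77), with 55 above 0 in both arms; at 48 h they scatter (0.30), with Mrpl15 above the line and Mrps18b and Mrpl17 below it.

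SR9009 itself, set against vehicle at each time, left the family's median near 0. At 0 h the median difference was -0.04, with 27 of 65 (41.5%) above 0 against 47.2% of all genes. Higher were 0 and lower 1, where 1.86% of all genes were higher and 2.77% lower. At 4 h of PE it was 0.04, with 40 of 65 (61.5%) above 0 against 40.8% of all genes. Higher were 0 and lower 0, where 1.99% and 5.17% of all genes were. Among the 65 the 4 h differences ran from -0.39 in Mrpl47 to 0.43 in Mrps18b. At 48 h of PE the median was 0.05, with 41 of 65 (63.1%) above 0 against 45.3% of all genes. Higher was 1 and lower 1, where 7.13% and 11.3% of all genes were. The share called, 1.54% in each direction, was below the background at 48 h. The medians over all genes were -0.01, -0.06 and -0.04. Relative to these, the medians of the 65 genes were at -0.03, 0.11 and 0.09. With FPKM rescaled to equal sums the 48 h median of the 65 genes was 0.16, and that of all genes 0.06.

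**Figure D4:**
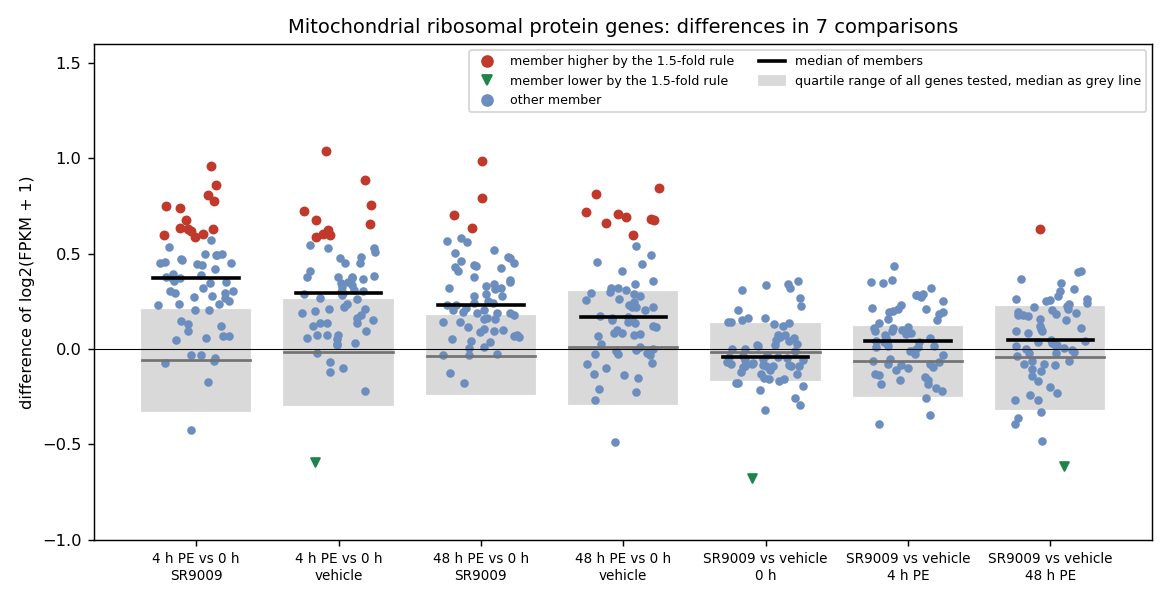
Difference of log2(FPKM + 1) of each of the 65 genes in 7 comparisons (dots; red higher and green lower by the 1.5-fold rule), with the genes' median (black line) and the median and quartile range of all genes tested (grey). PE medians are 0.37 and 0.30 at 4 h and 0.23 and 0.17 at 48 h (SR9009, vehicle), and SR9009 against vehicle medians are -0.04, 0.04 and 0.05; with FPKM rescaled to equal sums the 48 h vehicle median is -0.05.

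The gene lower with SR9009 at 0 h was Mrpl15 (chromosome 5, 14609684 to 14620965), counterpart of bacterial L15 in the core of the large subunit. It had 20.3, 31.1 and 41.4 FPKM at 0, 4 and 48 h with SR9009, and 33.1, 34.5 and 40.0 FPKM in vehicle. The arms were apart at 0 h and overlapped at 4 and 48 h. The 0 h difference was -0.68 (-0.89 to -0.44). Its value in SR9009 at 0 h has bounds of 1.75% on either side, the narrowest of the 390 group values of the family, where the next is 11.1%. With those bounds set to the family's median of 14.9% the range was -1.09 to -0.27 and the call held. The 4 h and 48 h differences of the SR9009 arm use the same value, and with the wider bounds their ranges were 0.23 to 0.96 and 0.59 to 1.39.

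At 48 h Mrpl34 was higher with SR9009, at 114 FPKM against 73.3 in vehicle, a difference of 0.63 (0.20 to 1.06). Mrps2 was lower, at 14.4 FPKM against 22.6 in vehicle, a difference of -0.61 (-1.03 to -0.20). Mrpl34 was called under all 3 other scalings, whereas Mrps2 was called under none, at -0.55 with quantile normalization, -0.55 with median centring and -0.51 with equal sums, so that the split of 1 higher and 1 lower became 1 and 0. Next to Mrps2 at the low end were Mrps18b at -0.48 (-0.90 to -0.06), Mrps10 at -0.39 and Mrpl17 at -0.36, and next to Mrpl34 at the high end Mrpl14 at 0.41, Mrpl2 at 0.40 and Mrps33 at 0.37. None of these met the rule.

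Whether the PE difference itself depended on SR9009 was read from the SR9009 arm's difference minus the vehicle arm's. At 4 h the median of the 65 genes was 0.07, with 44 (67.7%) above 0 against 42.7% of all genes. Higher were 0 and lower 0, where 0.115% and 0.664% of all genes were. Mrpl15 at 0.53 (-0.05 to 1.099) and Mrpl49 at 0.53 (-0.40 to 1.47) were highest. At 48 h the median was 0.10, with 40 of 65 (61.5%) above 0 against 47.5% of all genes. Higher was 1 and lower 1, where 5.49% and 7.68% of all genes were. The medians of this contrast over all genes were -0.05 at 4 h and -0.03 at 48 h. The range here adds up 4 sets of bounds, so a difference has to be large to be called.

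The gene higher in this contrast at 48 h was Mrpl15 at 0.72 (0.10 to 1.32), which stands on the narrow bounds named above: with the wider ones its range was -0.07 to 1.52 and it was not called. The gene lower was Mrps18b at -0.84 (-1.68 to -0.01), with 48 h differences of 0.0057 in the SR9009 arm and 0.85 in vehicle. It was at -0.72, -0.80 and -0.72 under the 3 other scalings and called in none. Mrpl17 at -0.67 (-1.48 to 0.14) and Mrpl34 at 0.60 (-0.24 to 1.45) passed the size but not the bounds. Mrpl17, a bacterial L17 counterpart by the exit tunnel, had 133, 180.4 and 122 FPKM at 0, 4 and 48 h with SR9009 and 107, 155 and 156 FPKM in vehicle. Like Mrps18b, it was high at 4 h in both arms and at 48 h in vehicle but not with SR9009.

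Split by subunit and by kind of protein, the genes had the following medians, with no test between them. At 4 h the median was 0.37 for 39 large-subunit and 0.34 for 25 small-subunit genes with SR9009, and 0.30 and 0.27 in vehicle. At 48 h it was 0.20 and 0.24 with SR9009, and 0.22 and 0.12 in vehicle, where 3 of 39 large-subunit and 6 of 25 small-subunit genes were called higher. Over all genes 11.3% were called higher in vehicle at 48 h. Genes with a bacterial counterpart had 4 h medians of 0.35 with SR9009 and 0.30 in vehicle, and mitochondria-specific ones 0.38 and 0.23. At 48 h the medians were 0.24 with SR9009 and 0.12 in vehicle for genes with a bacterial counterpart, and 0.21 with SR9009 and 0.25 in vehicle for mitochondria-specific ones. In the 48 h contrast between arms, genes with a bacterial counterpart were at 0.17 and mitochondria-specific ones at -0.06. Mrpl46 and Mrps11 are neighbours on chromosome 1, 233 bases apart in rn6 and on opposite strands. Mrpl46 had 18.6, 26.6 and 22.7 FPKM with SR9009 and 19.6, 25.5 and 24.7 FPKM in vehicle, and Mrps11 35.5, 45.3 and 42.2 FPKM with SR9009 and 38.7, 42.6 and 42.2 FPKM in vehicle. Both were highest at 4 h in each arm, and none of their differences met the rule.

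Further proteins of the mitochondrial ribosome go by other names, and 6 of them were measured. Their 4 h medians were 0.36 with SR9009 and 0.28 in vehicle. Dap3, a GTP-binding protein of the small subunit, had 37.1, 54.0 and 51.0 FPKM at 0, 4 and 48 h with SR9009 and 39.9, 61.2 and 67.4 FPKM in vehicle. It was called higher in vehicle at 4 h at 0.61 and at 48 h at 0.74, beside 0.53 and 0.45 with SR9009. Ptcd3, which binds small-subunit RNA, was higher at 4 h in vehicle at 0.73, beside 0.35 with SR9009. None was called between the arms.

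The factors that work with the ribosome gave the following values. Of 11 translation factors, the elongation factor Tufm had 84.2, 128 and 127 FPKM with SR9009 and 84.8, 121 and 119.6 FPKM in vehicle. It was called higher with SR9009 at 4 h at 0.60 and at 48 h at 0.59, beside 0.51 and 0.49 in vehicle. Gfm1, the translocase, was higher at 48 h with SR9009 at 0.63, and Tsfm, which recharges Tufm, at 48 h in vehicle at 0.62. The list's medians were 0.18 with SR9009 and 0.04 in vehicle at 4 h, and 0.28 and -0.0093 at 48 h, with a 48 h contrast between arms of 0.26. Of 15 assembly factors, with medians of 0.14 with SR9009 and 0.11 in vehicle at 4 h and 0.01 and 0.06 at 48 h, the RNA methyltransferase Rnmtl1 was higher at 4 h in both arms, at 1.04 with SR9009 and 0.92 in vehicle, and so was the RNA-binding Fastkd2, at 0.64 and 0.86. Mrm1 was lower at 48 h with SR9009, at -0.61. Tfb1m, which methylates the small-subunit RNA, was lower with SR9009 than with vehicle at 48 h, at -0.71. Of 15 mitochondrial tRNA synthetases 0 were called at 4 h with SR9009 and 1, Yars2 at 0.61, in vehicle, with list medians of 0.05 and -0.02 at 4 h, 0.15 and 0.07 at 48 h, and a 48 h contrast of 0.21. Cars2 was lower in vehicle at 48 h at -0.71 and higher with SR9009 than with vehicle at 48 h at 0.77. No test of the difference between these lists and the 65 genes was made.

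Of 11 genes for expression of mitochondrial DNA, the messenger-stabilising Lrpprc was higher at 4 h in both arms, at 0.82 with SR9009 and 0.63 in vehicle. The elongation factor Tefm was called higher with SR9009 and not in vehicle, at 0.87 at 4 h and 0.86 at 48 h, as was Mterfd3 at 48 h at 0.98. The contrast between the arms was not called for either, at 0.52 for Tefm at 4 h, and at 0.81 for Tefm and 0.80 for Mterfd3 at 48 h. The polymerase subunit Polg2 was lower at 4 h in vehicle at -0.88 and higher with SR9009 than with vehicle at 4 h at 0.63. Tfam, which packages and transcribes mitochondrial DNA, was at 0.40 with SR9009 and 0.25 in vehicle at 4 h, and the RNA polymerase Polrmt at -0.09 and -0.32, none of them called.

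The regulators took different courses from one another. Nrf1 was at 0.0033 with SR9009 and 0.25 in vehicle at 4 h, and Gabpa at -0.24 and 0.08, with no call. The coactivators of the PGC-1 family were called: Ppargc1b at 4 h in both arms, at 0.91 with SR9009 and 1.12 in vehicle, and Pprc1 in vehicle and not with SR9009, at 0.75 at 4 h and 0.71 at 48 h, with a contrast between the arms at 48 h of -1.03 (-1.83 to -0.23), which is called lower. Ppargc1a had 16.3, 20.5 and 28.0 FPKM with SR9009 and 26.4, 23.6 and 19.1 FPKM in vehicle, a contrast between the arms at 48 h of 1.19. Myc went the opposite way, with 15.6, 8.31 and 3.38 FPKM with SR9009 and 6.12, 7.20 and 17.6 FPKM in vehicle, a contrast of -3.31. Against these, the 48 h contrast of the 65 genes had a median of 0.10.

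For comparison, 2 related larger groups gave these values. The 83 measured nuclear genes of the respiratory chain, whose partners the mitochondrial ribosome makes, had 4 h medians of 0.36 with SR9009 and 0.39 in vehicle, near those of the 65 genes. At 48 h they were at 0.48 with SR9009 and 0.00062 in vehicle. Called were 22 higher and 0 lower with SR9009, where 5.04% of all genes were higher, and 1 higher and 2 lower in vehicle, where 11.3% were higher and 10.4% lower. Their 48 h contrast between arms was 0.60, with 7 of 83 higher and 0 lower, where 5.49% of all genes were higher. The 66 measured cytoplasmic ribosomal protein genes had 4 h medians of 0.16 with SR9009 and 0.17 in vehicle, 48 h medians of -0.33 and 0.26, and a 48 h contrast of -0.58, with 0 higher and 6 of 66 lower, where 7.68% of all genes were lower. The 65 genes lay between these groups at 0.10, and no test of the difference between lists was made. SR9009 against vehicle at 0 h was at -0.19 for the respiratory chain and 0.37 for cytoplasmic ribosomal proteins, beside -0.04.

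**Figure D5:**
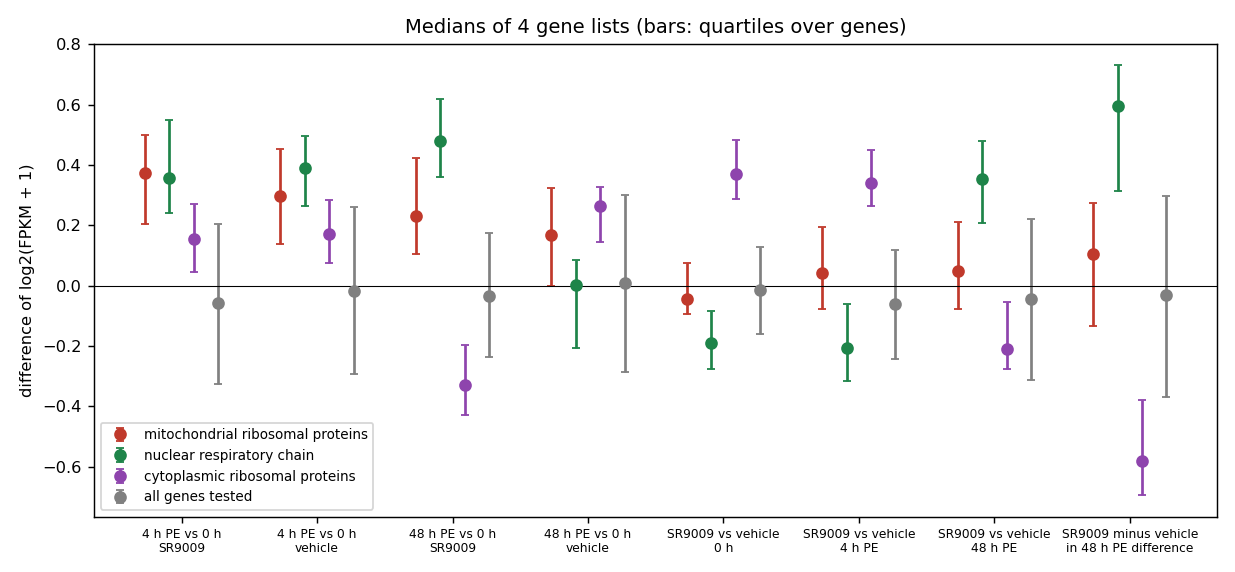
Median difference of log2(FPKM + 1) for the 65 genes (red), 83 nuclear respiratory chain genes (green), 66 cytoplasmic ribosomal protein genes (purple) and all genes tested (grey) in 7 comparisons and the 48 h contrast between arms; bars are quartiles over genes and not errors. At 48 h with SR9009 the medians of the 3 lists are 0.23, 0.48 and -0.33, and at 4 h with SR9009 they are 0.37, 0.36 and 0.16; with FPKM rescaled to equal sums the 48 h vehicle median of the 65 genes is -0.05.

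Cell makeup was read from markers. In bulk RNA, fewer cells of a type and less RNA per cell cannot be told apart. Of 10 cardiomyocyte markers 9 were measured, including Tnnt2, Actn2 and Myl3. They summed to 10152, 15570 and 19552 FPKM at 0, 4 and 48 h with SR9009, and to 14075, 19426 and 17950 FPKM in vehicle, with list medians at 4 h of 0.74 and 0.37 and called higher in 5 and 3 of 9. Of 10 fibroblast markers 9 were measured and Col1a2 is listed at 0. They summed to 1851, 939 and 1324 FPKM with SR9009 and 2098, 1224 and 1329 FPKM in vehicle, with 4 and 6 of 9 called lower at 4 h. At 4 h 6.5% of all genes were higher and 9.95% lower with SR9009, and 8.15% and 8.82% in vehicle. Macrophage and endothelial markers summed to at most 37.8 and 30.8 FPKM in a group. Smooth muscle markers, several of which immature myocytes also express, summed to between 1725 and 4660 FPKM. At 48 h of PE 7 cardiomyocyte markers were called higher and 0 lower with SR9009, whereas 3 were higher and 3 lower in vehicle. Of the 9 smooth muscle markers 2 were higher and 1 lower with SR9009 at that time, and 4 higher and 4 lower in vehicle. Over all genes 5.04% were higher and 4.97% lower with SR9009 at 48 h, and 11.3% and 10.4% in vehicle.

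The markers also moved with SR9009 itself. At 0 h, SR9009 against vehicle gave a median of -0.48 for the cardiomyocyte markers, with 9 of 9 below 0 and 2 called lower, and of -0.77 for the 6 measured macrophage markers, with 5 called lower. Over all genes 2.77% were called lower there. At 48 h the medians were 0.50 for cardiomyocyte markers, 0.66 for fibroblast markers and -0.61 for macrophage markers. The 48 h contrast between arms had a median of 1.04 for cardiomyocyte markers, with 5 of 9 called higher, and 1.08 for fibroblast markers, with 6 of 9 called higher. Over all genes 5.49% were called higher in that contrast. The marker levels moved with the PE comparisons, with SR9009 and with the contrast, and their part in the differences of the 65 genes was not tested.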

How the data were processed

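RNA-seq of 18 libraries (6 groups of 3; a stranded mRNA kit, per the labels) was analysed from the deposited table. Its values are FPKM, which the authors derived for every group from its 3 libraries, with confidence bounds, a status and a locus, per the file headers. FastQC, Trim Galore, TopHat, Cuffdiff and rn6 appear in the submitters' processing notes. Not given in the sources used here are versions, the confidence level, the scaling between libraries and the strand setting of the counting. Values per library were not used here, so the planned limma fit, leaving out replicates and the replicate block were not run, and any spread between libraries enters only through the authors' bounds. FPKM gives no depth.

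From the FPKM, differences of log2(FPKM + 1) were computed over the 10545 genes that averaged 1 FPKM or more. Values without status OK, at 0 or outside their own bounds were left out. That left between 10394 and 10418 genes in a comparison. A gene was called at 1.5-fold with a range, from the authors' bounds, that excludes 0; the code was tested on simulated data. For the family and each related list, counts and medians stand beside those of all genes. Loci are from the table, on rn6, first base counted as 1. Genes whose loci overlap are uncertain, since fragments could be split between them (Mrpl13 with Mtbp and Mrps7 with Gga3, beside those named above). For each of these members the overlap covers its whole listed locus, such as 29724 bases for Mrps18a and 9095 for Mrps2. The listed locus may therefore be a span shared with the other gene, and need not be the member's own position.

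Named are, per comparison, the 4 highest and 4 lowest members and up to 12 called ones per direction, the 5 highest and lowest by level, up to 4 called genes of a related list, and Dap3, Tufm, Ppargc1a, Tfam, Nrf1, Gabpa, Myc and Polrmt. Mrps11, Mrpl46 and the shown promoters were chosen after their values were seen. The members, lists and rules were chosen with earlier results of these data known. Promoters are from RefSeq, GRCr8, matched by symbol. Python 3.11.15, pandas 2.3.3, numpy 2.4.6 and matplotlib 3.10.9 were used.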

Additional observations from a re-analysis of the deposited data

How the results depend on the processing

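No paired analysis was possible because the table gives 1 pooled value per group and its columns carry no replicate number; for the same reason no replicate could be left out. A pseudocount of 0.1 FPKM or none, a mean of at least 5 FPKM and no filter on low values left every count and median of the 65 genes within the limits used here (1.5 times, or 0.1 on the log2 scale) and every named call in place. The number of called genes, higher and lower together, was 14 at 4 h of PE with SR9009, 11 at 4 h in vehicle, 4 at 48 h with SR9009, 9 at 48 h in vehicle, 1, 0 and 2 for SR9009 against vehicle at 0, 4 and 48 h, and 0 and 2 for the contrast between arms at 4 and 48 h.

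With FPKM rescaled to equal sums the counts were 6, 3 and 3 for 4 h with SR9009, 4 h in vehicle and 48 h in vehicle, and 1 each for SR9009 against vehicle at 48 h and the contrasts at 4 and 48 h. The medians became 0.25 and 0.10 at 4 h with SR9009 and in vehicle, -0.053 at 48 h in vehicle, 0.16 for SR9009 against vehicle at 48 h and 0.22 for the 48 h contrast. This scaling multiplies each group by 1 factor, so it moves every gene of a comparison together. Quantile normalization gave 5 called and a median of 0.19 at 4 h in vehicle, and 1 each for SR9009 against vehicle at 48 h and both contrasts. At 4 h in vehicle it called 780 higher and 785 lower of 10385 genes. Median centring gave 7 at 48 h with SR9009, and 1 each for SR9009 against vehicle at 48 h and the 48 h contrast. Called at 4 h in the contrast was Mrpl15, at 0.60 both with equal sums and with quantile normalization.

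At 2-fold, 1 gene was called at 4 h in vehicle and 0 in the other comparisons. Over all genes at 4 h in vehicle, 287 of 10418 were higher and 242 lower at 2-fold. With size alone and no bounds, 4 were called in the 48 h contrast. Alternatives added after the data were seen were leaving out Mrps36 and the genes with overlapping loci, which gave 7 at 4 h in vehicle and 1 for SR9009 against vehicle at 48 h, and widening narrow bounds, which gave 1 in the 48 h contrast. The 93 named values include uncalled ones, which had no call to lose. Of the called ones, counted by comparison above, 26 lost the call with equal sums, 16 with quantile normalization and 3 with median centring. At 2-fold 42 lost it, which left the 1 call given above. No named value that was called changed sign under these settings. The precision is limited by the bounds, about 15% either way per value, and by pooled libraries.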

Other observations

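The 4 genes of the family spelt otherwise in the table gave the following values. The gene listed as mrpl11 had 51.0, 86.6 and 56.6 FPKM at 0, 4 and 48 h of PE with SR9009 and 49.5, 74.2 and 51.4 FPKM in vehicle, with 4 h differences of 0.75 (0.31 to 1.19), called higher, and 0.57 (0.13 to 1.01), just under the rule. The gene listed as mrpl24 was called higher at 4 h with SR9009 at 0.68 (0.13 to 1.24), beside 0.46 in vehicle. The gene listed as mrpl9 ranged over 37.2 to 43.9 FPKM and Mrp63 over 52.6 to 74.1 FPKM, with no call in either.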
